A study of Mus musculus with 6 samples.

Results

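Ultraconserved elements are stretches of genome that are identical between human, mouse and rat, and most are non-coding. Many are transcribed, and the resulting non-coding RNAs are called transcribed-ultraconserved regions (T-UCRs). They can be read from one strand of an element or from both, so that a single element can give different RNAs, and their levels have been reported to be altered in human cancers. The array used here carried 481 elements with 1 probe for the plus and 1 for the minus strand of each. The 463 elements described here, with 926 probes, are all of those except 18 assigned to the gene loci of splicing factors. T-UCRs are written as the number of the element and the sign of the strand, as in uc158-.

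Liver RNA of 12-month-old C57Bl/6 mice was hybridised to 6 single-colour arrays. Of these, 3 held liver tissue with hepatocellular carcinoma (HCC) of Apcfl/fl mice and 3 held normal liver of Apc+/+ mice, so that genotype and tumour cannot be told apart. Apcfl/fl mice carry a hypomorphic allele of Apc, an inhibitor of the Wnt/β-catenin pathway. Whole tissue was profiled, and fewer cells of a type and less RNA per cell cannot be told apart.

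Each array had 62513 spots with a median processed intensity between 38.9 and 61.8. The difference between Apcfl/fl replicates 1 and 2 was below the technical noise, so their mean stood for 1 sample and the fits had 2 Apcfl/fl against 3 Apc+/+ samples. These 2 arrays may hold the same RNA, so values on 3 Apcfl/fl arrays need not be those of 3 separate mice. Apc+/+ replicate 2 was the array on which the fewest spots were well above background, at 51.0% against 70.9% to 82.9% on the others. The first row of the slide held the Apcfl/fl arrays together with Apc+/+ replicate 1, and the second row held the other Apc+/+ arrays. The hepatocyte genes Apoa1 and Cebpa, 2 of 6 fixed hepatocyte markers for which a probe could be named, were well above background on all 6 arrays, at log2 signals of at least 13.3. Their log2 changes were -2.38 and -1.56, with all Apcfl/fl arrays below all Apc+/+ arrays. Of the markers of other cells, 0 of 4 for cholangiocytes, 2 of 4 for leukocytes, 1 of 4 for fibroblasts and stellate cells and 1 of 3 for endothelium had a named probe. The leukocyte genes Cd74 and Adgre1 had log2 changes of 1.57 and 1.64, the stellate cell gene Lrat -1.52 and the endothelial gene Pecam1 -1.46. All 6 of these marker genes missed the adjusted threshold defined below. Probes are named mostly where the authors had called them, and the part of these cells in the T-UCR values was not tested.

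To ask which strand of each element gave a signal in liver, a strand was called detected when Feature Extraction flagged its spot as well above background on 5 or 6 of the 6 arrays. By this rule 388 of the 926 strands (41.9%) were detected. In 100 elements (21.6%) the plus strand alone was detected, in 118 (25.5%) the minus strand alone, in 85 (18.4%) both strands and in 160 (34.6%) neither. At least 1 strand was thus detected in 303 elements, and 218 of these had a single detected strand. The minus strand was detected in 45.9% of the 185 elements with a detected plus strand and in 42.4% of the 278 without one. These classes come from the flags themselves and were not tested, and the sign of a strand is that printed in the name of the probe.

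**Figure D1:**
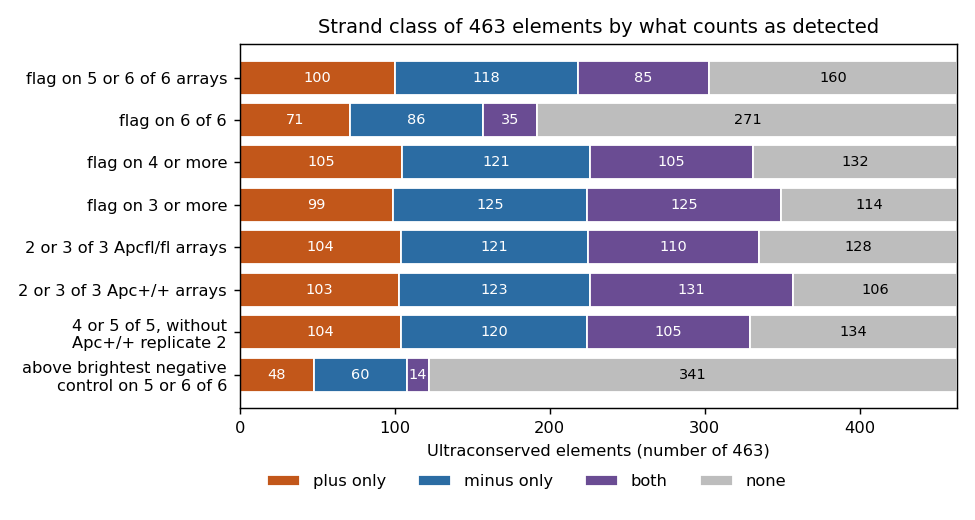
Each bar divides the 463 elements (x axis, number of elements) into plus only, minus only, both and none under 1 definition of a detected strand (y axis). The top bar is the definition used in the text, with 100, 118, 85 and 160 elements, and the bottom bar, which asks for a signal above the brightest negative-control probe, leaves 48, 60, 14 and 341.

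The flag was also set for probes that match no intended transcript. Of 1200 spots of 20 negative-control probes, 22.2% were flagged on 5 or 6 arrays, against 41.9% of the T-UCR probes here and 68.0% of all other probe spots. In 7 of the negative-control probes more than 10% of the 60 spots were flagged in this way, up to 86.7%, while in the other 13 the share was at most 1.67%. The brightest negative-control probe had a normalised log2 signal between 5.72 and 6.42 on the 6 arrays, with a mean of 6.13. Of the 388 detected strands 152 (39.2%) had a mean signal above that level, against 62.3% of all detected probes of the array. With a signal above it on at least 5 arrays as the definition, 48 elements were plus only, 60 minus only, 14 both and 341 neither.

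One array set much of the border between the classes. Of the 926 strands, 227 were flagged on all 6 arrays, 161 on 5 and 287 on none. In 159 of the 161 strands flagged on 5 arrays the missing array was Apc+/+ replicate 2. The lowest processed intensity flagged on Apc+/+ replicate 2 was 32.5, against 10.6 to 15.2 on the other arrays. The normalised log2 signals of the 161 strands differed there by a median of -0.10 from the mean of Apc+/+ replicates 1 and 3. That array flagged 232 T-UCR probes (25.1%), whereas the other 5 flagged between 417 and 560. Strands flagged on 5 arrays, just inside the rule, had a median log2 signal of 4.63, with a range of 3.54 to 6.06. The 48 strands flagged on 4 arrays, just outside it, had a median of 3.86 and a range of 3.18 to 4.62. If the flag was required on all 6 arrays, 71 elements were plus only, 86 minus only, 35 both and 271 neither. Without Apc+/+ replicate 2, and with 4 of the other 5 arrays required, the numbers were 104, 120, 105 and 134.

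Where a single strand was detected, the opposite strand was often without any flag. In the plus-only class the minus strand was flagged on none of the arrays in 50 of 100 elements, on 1 or 2 arrays in 19 and 10, and on 3 or 4 arrays in 12 and 9. In the minus-only class the plus strand had no flag in 56 of 118 elements, and was flagged on 3 or 4 arrays in 7 and 8.

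To compare the groups, elements were also classed on the 3 arrays of each group alone, with a flag on at least 2 of 3. The class was the same in both groups for 387 of the 463 elements (83.6%). These were 102 with both strands, 85 plus only, 102 minus only and 98 with neither. At least 1 strand was detected in 335 elements on the Apcfl/fl arrays and in 357 on the Apc+/+ arrays, where Apc+/+ replicates 1 and 3 flagged more T-UCR probes than any other array. Elements without a detected strand on the Apcfl/fl arrays were plus only in 14 cases and minus only in 16 on the Apc+/+ arrays, against 1 plus-only and 7 minus-only elements the other way round. Apc+/+ replicates 1 and 3 also flagged the most negative-control spots, 42.6% and 57.6%. On the Apcfl/fl arrays that share was 24.8% to 31.7%, and on Apc+/+ replicate 2 it was 8.25%. The flag thus differed between arrays, and these counts give no support for a direction. A single element, uc25, singled out after its values were seen, was plus only on the Apcfl/fl and minus only on the Apc+/+ arrays, and both its strands were dim, with log2 signals from 2.57 to 4.21. No strand was flagged on all 3 arrays of one group and on none of the other.

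The levels of the detected strands overlapped widely between the classes. The median of their mean log2 signals over the 6 arrays was 5.58 in the plus-only class, with quartiles of 4.68 and 6.75. It was 5.71 in the minus-only class, with quartiles of 4.84 and 7.21, and 5.83 in the class with both strands, with quartiles of 4.85 and 7.15. All 3 medians lay below 6.83, the median of all detected probes of the array. Undetected opposite strands had medians of 2.49 in the plus-only and 2.58 in the minus-only class, and the strands of elements with neither detected had 2.32. Probes bind with different efficiency, so that a level orders signals and not amounts of RNA. On single arrays the class medians ranged from 5.43 to 5.72 for plus only, from 5.62 to 5.78 for minus only and from 5.72 to 5.95 for both.

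**Figure D2:**
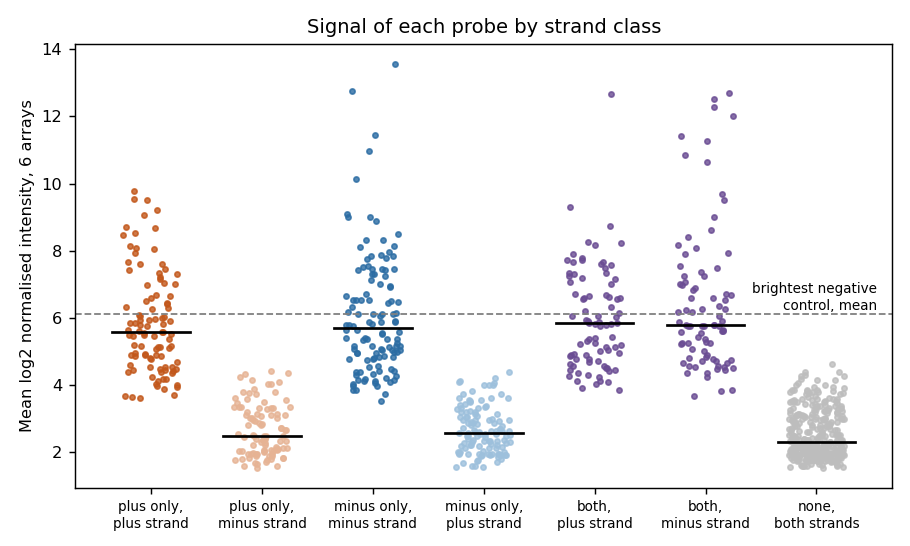
Each point is the mean normalised log2 intensity over the 6 arrays (y axis) of 1 probe, with elements grouped by strand class and by strand (x axis). Black lines are medians, 5.58 for the detected strands of plus-only and 5.71 for those of minus-only elements, and the dashed line is the brightest negative-control probe at 6.13, which 152 of the 388 detected strands exceed.

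The very brightest signals came mostly from the minus strand, while a mean log2 signal above 8 was reached by 18 plus and 29 minus strands. All detected plus and minus strands had medians of 5.77 and 5.78. A mean log2 signal above 10 was reached by 14 detected strands, of which 13 were minus strands, 5 of minus-only elements and 8 of elements with both strands. The exception was uc154+, with 13.13, 13.10 and 11.83 on Apcfl/fl replicates 1, 2 and 3 and 12.67, 12.50 and 12.73 on Apc+/+ replicates 1, 2 and 3. Its groups overlapped, because Apcfl/fl replicate 3 lay below and replicates 1 and 2 above all Apc+/+ arrays.

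The other strands among the top 2 of each class showed how far this range reached. uc141-, of an element with both strands, measured 13.20, 13.09 and 12.61 on the Apcfl/fl and 12.61, 12.29 and 12.39 on the Apc+/+ arrays in the order of replicates, which is the order kept below. The minus-only uc465- measured 12.72, 12.80 and 12.61 against 12.66, 12.87 and 12.83. For uc465- the groups overlapped, and for uc141- Apcfl/fl replicate 3 lay level with the highest Apc+/+ array. The plus-only strands uc356+ and uc471+ reached less, with 9.84, 9.82 and 9.77 against 9.83, 9.75 and 9.74 for uc356+. uc471+ measured 9.77, 9.93 and 9.06 against 9.46, 9.50 and 9.45. Neither of the plus-only strands separated the groups.

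To compare Apcfl/fl HCC with Apc+/+ liver, each of 474 T-UCR probes flagged on at least 3 arrays was tested within a fit of all 45640 such probes of the array. These 474 comprised the 388 detected strands and 86 others. 1 probe, uc381-, was left out because of an unreliable spot. The adjusted threshold was an adjusted p below 0.05 by limma with at least a 2-fold change, and the methods' threshold the same fold with a p of at most 0.05 before adjustment. Over all tested probes, 1.92% passed the adjusted threshold, 1.03% as higher and 0.896% as lower. Of the 388 detected strands 5 passed it, 1 higher and 4 lower, against 1.97% of all detected probes, 1.07% higher and 0.905% lower. uc158- rose, and uc371-, uc18-, uc460- and uc153+ fell. By class this was 1 lower strand in plus only, 1 lower in minus only, and 1 higher and 2 lower among strands of elements with both.

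At the methods' threshold 17 of the 388 detected strands were counted, 3 higher and 14 lower in Apcfl/fl HCC. The background over all detected probes was 11.3%, with 5.35% higher and 5.98% lower. In the plus-only class 0 were higher and 4 lower, in the minus-only class 1 and 3, and in the class with both strands 2 and 7. The 3 arrays of one group lay apart from those of the other in 91 detected strands (23.5%), against 35.8% of all detected probes. Over the 474 tested T-UCR probes 25 passed the methods' threshold, 7 higher and 18 lower, against 11.2% of all tested probes, 5.36% higher and 5.85% lower, and the groups were apart in 106, against 33.8% of all tested probes. The 8 undetected strands among the 25, 4 in each direction, entered the test through few flagged arrays and had mean log2 signals of at most 4.42. The higher uc21-, uc167- and uc379+ were flagged on 3 Apcfl/fl arrays and 1 Apc+/+ array. The lower uc89+, uc367+ and uc470- were flagged on 1 Apcfl/fl array and 2 Apc+/+ arrays. uc159- and uc428+ had 2 flags in each group. The filter thus shares flags with the contrast, and these 8 give no support for a direction.

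**Figure D3:**
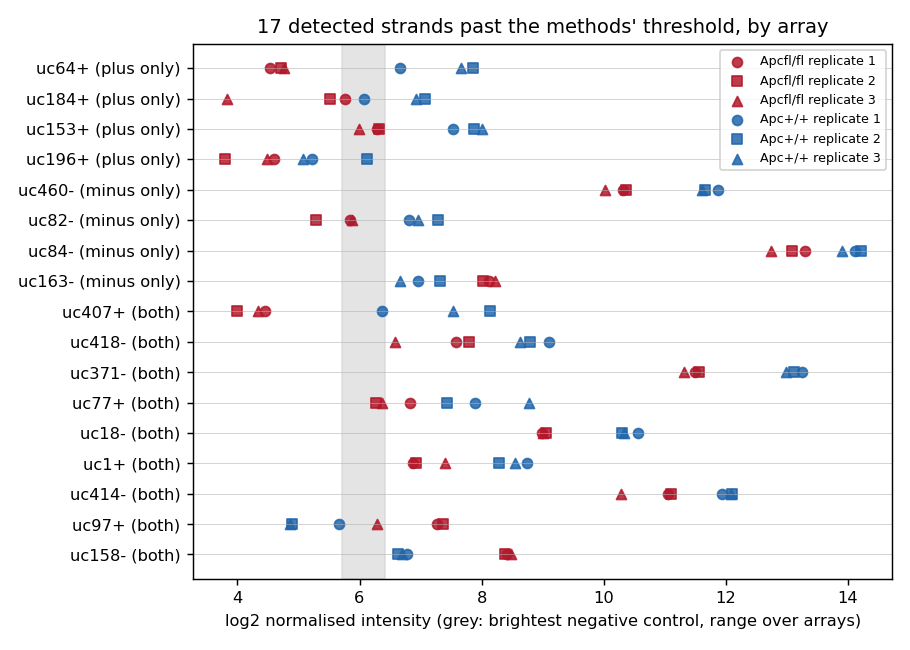
Normalised log2 intensity (x axis) on each of the 6 arrays for the 17 detected strands past the methods' threshold (y axis, with class in brackets). Red marks are Apcfl/fl and blue marks Apc+/+ replicates 1 (circle), 2 (square) and 3 (triangle), the grey band is the range of the brightest negative-control probe, 5.72 to 6.42, and 14 strands are lower and 3 higher in Apcfl/fl.

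The median log2 change of the detected strands was near 0 in every class. It was 0.07 in plus only, with 58 strands higher and 42 lower, and 0.06 in minus only, with 68 higher and 50 lower. It was -0.03 among strands of elements with both, with 80 higher and 90 lower. All detected probes of the array had a median of 0.05, and 54.4% of them were higher. A difference of at least 2-fold was measured in 30 of the 388 strands (7.73%), against 15.6% of all detected probes. With the slide row as a block, which compares the Apcfl/fl arrays with Apc+/+ replicate 1 alone, the medians were -0.02, -0.11 and -0.08, and that of all detected probes -0.01.

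**Figure D4:**
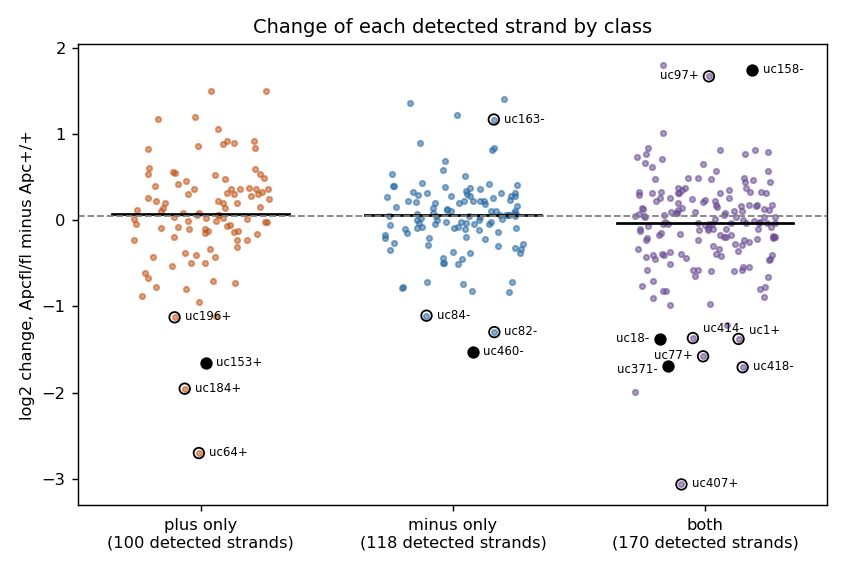
log2 change of each detected strand, Apcfl/fl minus Apc+/+ (y axis), by strand class (x axis). Black lines are class medians of 0.07, 0.06 and -0.03, the dashed line is the median of all detected probes, 0.05, black points passed the adjusted threshold and ringed points only the methods' threshold.

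The changes also divided by the number of flagged arrays. Of the 161 strands flagged on 5 arrays 116 had higher and 45 lower signals in the tumours, and their median change was 0.22. Of the 227 flagged on all 6 arrays 90 were higher and 137 lower, and the median was -0.06. The same division of all probes of the array gave medians of 0.25 and -0.02. Of the 13 strands at least 2-fold higher, 11 were flagged on 5 arrays, while all 17 strands at least 2-fold lower were flagged on 6. Of all probes of the array flagged on 5 arrays, 1327 were at least 2-fold higher and 238 lower. Of those flagged on 6, 1946 were higher and 2752 lower. For the strands flagged on 5 arrays, the missing array was nearly always Apc+/+ replicate 2. The rule for detection and the contrast thus share that array, and these counts describe the strands without support for a direction. With Apc+/+ replicate 2 left out of the group mean, the median of the strands flagged on 5 arrays was 0.15 and 6 of them were at least 2-fold higher. Among strands flagged on all 6 arrays the medians were -0.02 in plus only, -0.04 in minus only and -0.10 in elements with both.

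Of the 14 strands with a mean log2 signal above 10, 13 were lower and 1, uc141-, was higher in Apcfl/fl HCC. This tally depended on small changes, as 9 of the 14 were lower with scaling to the 75th percentile, where uc154+, uc465-, uc268- and uc360- turned, and 9 without Apcfl/fl replicate 3, against 12 or 13 under the other settings. Of all detected probes above that level 51.9% were lower, with a median change of -0.03, against a median of -0.79 for the 13 bright minus strands. Of the 152 detected strands above the brightest negative-control probe, 60 were higher and 92 lower, with medians of 0.00 in plus only, -0.06 in minus only and -0.10 in elements with both, against 0.00 for all detected probes above it. The strands share arrays and are not replicates, and the limits on brightness were chosen after the data were seen.

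The element uc158, with both strands detected, gave the single rise past the adjusted threshold. On its minus strand, which the study had followed by PCR, the Apcfl/fl arrays measured 8.42, 8.38 and 8.49 and the Apc+/+ arrays 6.77, 6.63 and 6.70. All Apcfl/fl arrays were higher, and the log2 change was 1.74 (SE 0.18, adjusted p 0.0271 by limma). uc158+ measured 4.08, 4.38 and 4.17 against 4.60, 3.86 and 3.71, with overlapping groups below the brightest negative-control probe. Its log2 change was 0.14 (SE 0.32), and -0.40 with the slide row as a block.

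The elements uc371 and uc18 had both strands detected and fell on the minus strand, the brighter of the pair. uc371- measured 11.56 on Apcfl/fl replicate 2, 11.32 on replicate 3 and a value between them on replicate 1, against 13.25, 13.12 and 12.99 on the Apc+/+ arrays, a change of -1.69 (SE 0.20, adjusted p 0.0354 by limma). uc18- measured 8.99, 9.05 and 9.0 against 10.56, 10.29 and 10.34, a change of -1.38 (SE 0.19, adjusted p 0.0467 by limma). For each of them every Apcfl/fl array was below every Apc+/+ array. uc371+ measured 6.40, 6.36 and 6.53 against 6.74, 6.96 and 6.86, so that its groups did not overlap either, but its change of -0.40 (SE 0.19, adjusted p 0.358 by limma) did not pass. uc18+ measured 5.34, 6.31 and 6.67 against 5.09, 5.51 and 6.13, with overlap and a change of 0.67 (SE 0.42).

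A single strand was detected in the other elements with a call. In the minus-only class uc460- measured 10.32, 10.37 and 10.02 against 11.87, 11.66 and 11.61, a fall of 1.53 on the log2 scale (SE 0.21, adjusted p 0.0469 by limma). In the plus-only class uc153+ measured 6.29, 6.32 and 5.99 against 7.54, 7.88 and 8.0, with a change of -1.66 (SE 0.24, adjusted p 0.0488 by limma). Both fell with no overlap between the groups. uc460+ was flagged on none of the arrays, whereas uc153- was flagged on 4, 2 in each group, and ranged from 3.56 to 6.37 on the Apcfl/fl and from 2.49 to 4.69 on the Apc+/+ arrays.

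The calls of these 5 strands stand beside those of the whole array. Without Apc+/+ replicate 1, 2 or 3, 0 of the 5 passed the adjusted threshold by limma, and 0, 1 and 0 of the 45640 tested probes did, so these settings say nothing of the 5 in particular. The same holds with Apc+/+ replicates 2 and 3 averaged and with the slide row as a block, where 0 of the 45640 passed. Without Apcfl/fl replicate 3, which leaves 1 Apcfl/fl sample that is assumed to vary like the others, 361 tested probes passed and 0 of the 5 did. With the row as a block the log2 changes were 1.67 for uc158-, -1.83 for uc371-, -1.54 for uc18-, -1.69 for uc460- and -1.39 for uc153+.

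Several plus strands near the background had larger measured differences than any of these, without passing the adjusted threshold. The plus-only uc64+ measured 4.53, 4.71 and 4.77 on the Apcfl/fl and 6.67, 7.85 and 7.67 on the Apc+/+ arrays, a change of -2.70 (SE 0.41, adjusted p 0.0517 by limma). uc407+, of an element with both strands, measured 4.45, 4.0 and 4.33 against 6.36, 8.14 and 7.52, a change of -3.07 (SE 0.55, adjusted p 0.0676 by limma). In both cases the groups did not overlap and the Apcfl/fl arrays lay below every brightest negative-control signal, so the sizes depend on how background was treated. With normexp background correction they were -1.39 and -1.42. uc64+ then passed the adjusted threshold, with an adjusted p of 0.0351 by limma, as it did with the replicate number as a block (0.0377). Both strands passed by limma with the flag on all 6 arrays (0.0264 for uc64+ and 0.0359 for uc407+) and with 6 arrays as 6 samples (0.00909 and 0.0151). They also passed by eBayes with trend and robust (0.0286 and 0.0413). Under the remaining settings neither passed. The opposite strand uc64- was flagged on 1 array, and uc407- measured 4.14, 3.91 and 4.07 against 3.77, 2.35 and 3.84.

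Other plus-only strands past the methods' threshold were uc184+ and uc196+. uc184+ measured 5.77, 5.52 and 3.83 against 6.07, 7.07 and 6.93, a change of -1.95 (SE 0.63, adjusted p 0.200 by limma). uc196+, which the study had followed by PCR, measured 4.61, 3.80 and 4.48 against 5.22, 6.12 and 5.07, a change of -1.13 (SE 0.38, adjusted p 0.213 by limma). The groups were apart in both, by little in the case of uc184+, where Apcfl/fl replicate 1 and Apc+/+ replicate 1 were close. The change of uc184+ was -1.05 without Apcfl/fl replicate 3, and with normexp those of uc184+ and uc196+ were -0.84 and -0.38. Neither uc184- nor uc196- was flagged on any array. The PCR of the study used further mice, and there it named uc158- but not uc196+ as significantly changed.

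In the minus-only class 3 further strands passed the methods' threshold alone. uc82-, also followed by PCR in the study, measured 5.85, 5.28 and 5.87 against 6.80, 7.29 and 6.96, a change of -1.30 (SE 0.24, adjusted p 0.0738 by limma). uc84-, the brightest T-UCR probe of the set, measured 13.29, 13.09 and 12.74 against 14.11, 14.21 and 13.90, a change of -1.11 (SE 0.23, adjusted p 0.0924 by limma). uc163- was the higher one, with 8.13, 8.03 and 8.22 against 6.96, 7.32 and 6.67 and a change of 1.17 (SE 0.26, adjusted p 0.102 by limma). The groups did not overlap in any of the 3, and the opposite strands uc82+, uc84+ and uc163+ were flagged on none of the arrays. With normexp the change of uc82- was -0.79. By PCR in further mice the study did not name uc82- as significantly changed.

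Among elements with both strands, uc418- measured 7.59, 7.79 and 6.58 against 9.10, 8.78 and 8.63, a change of -1.71 (SE 0.39, adjusted p 0.106 by limma). uc97+ measured 7.28, 7.37 and 6.29 against 5.66, 4.89 and 4.86, a change of 1.67 (SE 0.43, adjusted p 0.134 by limma). Neither overlapped between groups, and Apcfl/fl replicate 3 was the array farthest from the Apc+/+ arrays for uc418- and the nearest to them for uc97+. With normexp the change of uc97+ was 0.89. uc418+ and uc97- had changes of -0.40 and 0.30, with overlap. The remaining 3 strands past the methods' threshold, named after their values were seen, were uc1+, uc77+ and uc414-, with changes of -1.38, -1.58 and -1.37.

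To ask whether both strands of an element moved alike, the 85 elements with both strands detected were compared strand by strand. The changes had the same sign in 51 elements (60%), with both strands higher in 23 and both lower in 28. Across elements, which share the 6 arrays, the changes of plus and minus strand had a Pearson r of 0.13 and a Spearman rho of 0.24, and their mean levels an r of 0.13 and a rho of 0.10. In no element did both strands pass the methods' threshold. Both strands were above the brightest negative-control probe in 18 elements, 1 strand in 36 and neither in 31, so that in most elements at least 1 strand was below it.

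The difference between the change of the plus and that of the minus strand had a median size of 0.43 on the log2 scale. It was tested by limma over 94 elements with both strands detected, the 85 and 9 of those left out, and 0 had an adjusted p below 0.05. The lowest adjusted p was 0.114, and 10 of the 85 elements had an unadjusted p of at most 0.05. The share over the 94 was 12.8%, but as the 94 include the 85 it is no separate background. The difference of the changes, plus minus minus, was -3.79 (SE 0.92) for uc407, 2.05 (SE 0.49) for uc18 and -1.60 (SE 0.34) for uc158, each with an adjusted p of 0.114 by limma. Smaller differences of 1.29 (SE 0.29) for uc371 and 1.31 (SE 0.34) for uc418 did not pass either. Without Apc+/+ replicate 2 the difference for uc407 was -2.91, with an adjusted p of 0.0252 by limma. The adjusted p for uc407 by limma was also below 0.05 with normexp (0.0364) and with 6 arrays as 6 samples (0.0405). For uc158 it was 0.0106 and 0.0405 by limma under these settings, and for uc18 0.0193 and 0.0525. Neither uc158 nor uc18 passed under the remaining settings. For uc407 the adjusted p by limma was 0.198 without Apc+/+ replicate 1, 0.222 without Apc+/+ replicate 3 and 0.594 with the slide row as a block.

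The other 2 of the 5 largest strand differences were less certain. For uc308 the difference was -1.96 (SE 1.82, adjusted p 0.638 by limma). uc308+ measured 4.83, 4.99 and 4.74 on the Apcfl/fl and 5.46, 10.49 and 4.51 on the Apc+/+ arrays. The high value came from Apc+/+ replicate 2 alone, and without it the strand difference was -0.07. uc308- lay between 8.45 and 8.83 on all 6 arrays. For uc213 the difference was -1.54 (SE 0.64, adjusted p 0.373 by limma), with uc213+ at 4.23, 4.13 and 5.02 against 6.10, 5.54 and 4.43. uc213- measured 4.03, 3.91 and 4.67 against 4.30, 2.63 and 3.68, and the groups overlapped on each strand by itself.

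**Figure D5:**
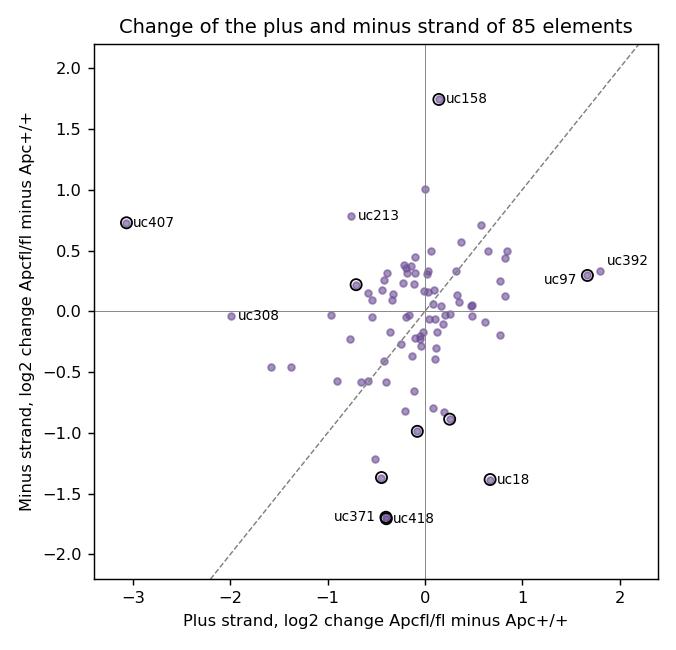
log2 change, Apcfl/fl minus Apc+/+, of the plus strand (x axis) against that of the minus strand (y axis) for the 85 elements with both strands detected. Ringed elements have an unadjusted p of at most 0.05 for the difference between strands, the dashed line marks equal change, and 51 elements lie in the quadrants where both strands have the same sign.

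The 18 elements in splicing factor loci, left out above, differed in their signals by description. They had 25 detected strands, of which 19 (76%) were above the brightest negative-control probe, against 39.2% here. At the methods' threshold 1 of the 25 was higher and 4 were lower, against 3 and 14 of 388. Of all detected probes of the array, 5.35% were higher and 5.98% lower at this threshold. The sets were separated by the genes they lie in and not by a test, and the difference was not tested.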

How the data were processed

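RNA of 3 Apcfl/fl and 3 Apc+/+ livers was measured on Arraystar mouse lncRNA arrays, and groups were taken from the titles in the labels. By the methods of the study and the labels, rRNA was removed and RNA was amplified with random primers into Cy3-labelled cRNA. Whether the labelling keeps the strand is not given in the sources used here. The authors extracted the arrays with Agilent Feature Extraction 11.0.1.1, and the deposited scanner files hold a background-subtracted processed intensity, linear in scale, with flags coded 0 or 1. The authors also deposited a table with quantile-normalised log2 values of the probes they called, which served for names and as an alternative for single strands, and their fold changes and p-values, which were not used.

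Control spots, 1200 negative-control spots and 78 probes with outlier flags were left out. log2 processed intensities of 59631 probes were quantile normalised, as in the study's methods. Pairs of arrays were compared by the mean chi-square of log2 differences over the Feature Extraction error. It was 0.774 for Apcfl/fl replicates 1 and 2, which were averaged. For Apcfl/fl replicate 3 against these it was 14.9 and 15.1, and for pairs of Apc+/+ arrays 1.99 to 7.56. Between the groups it was 17.8 to 23.4, so the Apcfl/fl samples differed from each other nearly as much as from Apc+/+ liver. Groups were compared with limma 3.58.1 (R 4.3.3), two-sided, as Apcfl/fl minus Apc+/+, on probes well above background on at least 3 arrays. Adjustment was Benjamini-Hochberg over the 45640 tested probes. Levels are means over 6 arrays. The brightest negative control is the highest of 20 probe medians over 60 spots on an array. Differences between strands were fitted on log2 plus minus log2 minus signal. Since the labels do not say more of the replicates than their number, p-values measure the spread between these samples, and the number of arrays limits the precision. The fits were also run on simulated data. The changes set there were larger than those of the T-UCRs past the adjusted threshold. How well changes of that smaller size are found was thus not tested.

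Members, classes and lists were chosen with earlier results of these data known. Named strands were uc158-, uc82- and uc196+ with their opposite strands, every strand past the adjusted threshold, the 3 largest changes each way per class past the methods' threshold, the 5 largest strand differences, the 2 brightest strands per class, strands flagged on all arrays of 1 group only, and opposite strands. Alternatives changed the background correction, normalisation, filter, samples, block, test and definition of detection. normexp was run on the median spot signal with its background. Coordinates of the elements were not used here.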

Additional observations from a re-analysis of the deposited data

How the results depend on the processing

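Causes of these differences were not tested, and limiting the changes to strands brighter than the negative controls was chosen after the data were seen. The number of elements with both strands was 35 with the flag on all 6 arrays, 131 on the Apc+/+ arrays and 201 with the weaker flag for a positive and significant signal, and the number with neither was 271, 106 and 69. Above the brightest negative control the classes held 48, 60, 14 and 341 elements. Leaving out 1 replicate gave 100 to 104 plus only, 117 to 120 minus only, 85 to 105 both and 134 to 157 neither.

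The 5 strands past the adjusted threshold stood beside 878 of all tested probes. They became 10 with normexp, beside 1660, 1 with scaling to the 75th percentile, beside 728, 11 with the flag on all 6 arrays, beside 1966 of 29700, 18 with 6 arrays as 6 samples, beside 3441, and 9 by eBayes with trend and robust, beside 1900. The count was 0 by limma without a filter, with Apc+/+ replicates 2 and 3 averaged and with the slide row as a block, and 0 by the methods' t-test, beside 277 of 59631, 0, 0 and 3 of all tested probes, where 62, 36, 30 and 44 T-UCR probes had an unadjusted p of at most 0.05. Leaving out 1 replicate gave 0 to 5 by limma, with 0 without Apcfl/fl replicate 3 or any Apc+/+ replicate, where 37 to 60 had such a p. Without an Apc+/+ replicate 0 or 1 of all tested probes passed, so these settings say nothing of the T-UCRs. The 25 probes past the methods' threshold, undetected strands included, became 13 with normexp, 42 without a filter, 16 with the flag on all 6 arrays, 12 above the brightest negative control and 22 to 36 with 1 replicate left out. The minus-only median of 0.06 became -0.040 with the flag on all 6 arrays, -0.11 with the slide row, -0.063 above the brightest negative control and 0.016 to 0.12 with 1 replicate left out. Strand differences with an adjusted p below 0.05 numbered 0, but 6 with normexp, 4 with 6 arrays and 0 to 1 with 1 replicate left out.

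The replicate numbers did not pair the arrays, as same-numbered arrays had correlations of 0.06, -0.07 and 0.04. With the replicate number as a block 4 strands passed the adjusted threshold, 3 of them among the 5, and 34 probes the methods' one.

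Signs turned only in changes that did not pass. The change of uc154+ was 0.079 with the 75th percentile and 0.054 with 6 arrays or the replicate block, and that of uc471+ was 0.039 with normexp, 0.022 with the 75th percentile, 0.12 with 6 arrays or the replicate block and 0.00018 with the slide row. The slide row gave 0.025 for uc465-, -0.40 for uc158+ and -0.026 for uc356+, and the 75th percentile 0.21 for uc465-. With 1 replicate left out the ranges were -0.22 to 0.48 for uc154+, -0.053 to 0.38 for uc471+, -0.49 to 0.10 for uc418+, -0.16 to 0.042 for uc308- and -0.030 to 0.41 for uc158+.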

Other observations

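Elements are numbered along the human genome, so that consecutive numbers are often neighbours there. Among 445 pairs of elements whose numbers are 1 apart, 23.8% had the same strand class, against 26.3% of all pairs. Where both elements had a single detected strand, it carried the same sign in 39 of 84 such pairs (46.4%), against 50.1% of all pairs. Within the plus-only and minus-only classes, the only ones counted for runs, the longest runs of consecutive numbers were uc272 to uc276, 5 minus-only elements, and uc353 to uc356, 4 plus-only elements. A further 5 runs of 3 elements were counted in these classes, 3 plus only and 2 minus only. Strand signs are those of the probe names, and these counts are a description without a test.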
